A study of Mus musculus with 9 samples.

Results

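Metallothioneins and zinc transporters were followed as 8 genes in RNA sequencing of mouse liver: the metallothioneins Mt1 and Mt2, the importers Slc39a4, Slc39a5, Slc39a8 and Slc39a14, and the exporters Slc30a1 and Slc30a10. They were picked by gene symbol, and all 8 were among the 55401 genes of the count table and among the 15717 genes that passed the filter on low counts. The data came from 9 livers of female FVB/N mice, 3 per group, with the RAS/AKT model of hepatocellular carcinoma (HCC) in 2 of the groups. In that model, plasmids that encode the oncogenes and a Sleeping Beauty transposase are pushed into liver cells by hydrodynamic tail vein injection. "Untreated" HCC mice still received a virus, an empty AAV8 vector, and miR-22-treated HCC mice received AAV8 that carries miR-22 behind a CMV promoter. Either virus was given 1 week after the oncogenes, and those livers were taken 5 weeks after the oncogenes. The labels give an age of 6 weeks for the mice of all 3 groups as obtained. For the healthy livers they give no virus or plasmid and no time of harvest, so whether these mice were as old as the HCC mice when the livers were taken is not known here. The labels disagree with one another on the strain (C57BL/6 in one field) and on the plasmids (a truncated β-catenin plasmid is listed besides AKT and NRAS in the protocol). Nothing says whether livers of a group came from separate litters or days, so p-values measure the spread between these livers.

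Zinc inside a cell is held at a very low free level. ZIP proteins, encoded by Slc39a genes, bring metal into the cytosol, ZnT proteins, encoded by Slc30a genes, take it out of the cytosol, and metallothioneins, small proteins rich in cysteine, bind zinc and copper in between. When free zinc rises, the transcription factor Mtf1 binds metal-responsive elements (MREs) ahead of the metallothionein genes and of the ZnT1 gene Slc30a1. Glucocorticoids and inflammatory cytokines are also known to raise metallothionein expression in liver, and ZIP14, the product of Slc39a14, is a major hepatocyte importer of zinc, iron and manganese.

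Mt2 and Mt1 lie next to each other on the plus strand of chromosome 8 in GRCm39, the build the study names, at chr8:94898819-94900207 and chr8:94905710-94906955, with 5502 bases between them. Their coding sequences, read from the reference and shown without the stop codon, are of equal length, 183 bases. They are shown because the reads of one gene must be told from those of the other, and capitals mark the 38 bases at which they differ (79.2% identity).
Mt1: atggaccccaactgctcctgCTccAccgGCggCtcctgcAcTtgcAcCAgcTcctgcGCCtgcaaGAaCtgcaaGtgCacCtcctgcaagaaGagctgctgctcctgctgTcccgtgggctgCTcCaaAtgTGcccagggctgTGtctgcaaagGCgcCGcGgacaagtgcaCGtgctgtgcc
Mt2: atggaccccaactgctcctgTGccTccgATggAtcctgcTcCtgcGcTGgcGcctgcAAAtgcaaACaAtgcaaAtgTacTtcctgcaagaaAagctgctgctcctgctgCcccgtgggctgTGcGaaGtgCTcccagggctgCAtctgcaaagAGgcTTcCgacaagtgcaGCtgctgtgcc
No stretch of 31 bases was shared between the reference transcripts of Mt1 and Mt2, and none of the 519 such stretches of the Mt1 transcript occurred in a transcript of another annotated gene. For Mt2, 448 of 652 stretches were shared, 427 of them with Gm45774, a gene annotated on the opposite strand over its exons. Since the libraries kept no strand, reads from the stretches that Mt2 shares with Gm45774 could not be told apart, and both assignments are given beside the Mt2 results.

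The MRE core was searched as TGCACNC and TGCGCNC, on both strands, in the 600 bases before the start codon. That window was used because the annotated transcripts of Mt1 and Mt2 begin well ahead of their start codons, so most cores fell inside the annotated transcript. Mt1 held 5 cores and Mt2 held 7, and 0.699% and 0.0782% of 21752 protein-coding genes held at least as many in a window of the same length. Slc30a1 also held 5, Slc30a10 held 4 (2 of them overlapping on opposite strands, at least 4 in 1.97% of genes), Slc39a8 held 1 (at least 1 in 39.9%), and Slc39a4, Slc39a5 and Slc39a14 held 0. In the 250 bases before the annotated transcript start, which were searched first, the counts were lower: Mt2 and Slc30a10 held 2 cores each (at least 2 in 4.86% of 21757 genes), Mt1, Slc30a1, Slc39a5 and Slc39a8 held 1 each (at least 1 in 21.8%), and Slc39a4 and Slc39a14 held 0. The longer window was chosen after that search. The Mt1 and Mt2 cores are shown on the gene's strand with the core in capitals, since they are what the text means by an MRE.
Mt1, 245 bases before the start codon: cccgctgTGCACACtggcgct
Mt1, 220 bases before the start codon: ggagctcTGCACTCcgcccga
Mt1, 202 bases before the start codon: cgaaaagTGCGCTCggctctg
Mt1, 138 bases before the start codon: gcctgctGGGTGCAaaccctt
Mt1, 124 bases before the start codon: aacccttTGCGCCCggactcg
Mt2, 453 bases before the start codon: tcgcctcTGCACCCggcccct
Mt2, 358 bases before the start codon: gacccttTGCGCTCagctcct
Mt2, 280 bases before the start codon: ggagggcGTGTGCAggctctg
Mt2, 226 bases before the start codon: tcgggtcGTGCGCAggcccag
Mt2, 172 bases before the start codon: aaagggcGTGTGCAggcggcg
Mt2, 153 bases before the start codon: cgggggcGCGTGCAtggtgcc
Mt2, 119 bases before the start codon: gagctttTGCGCTCgacccaa
A match of letters is a description and not a bound site.

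**Figure D1:**
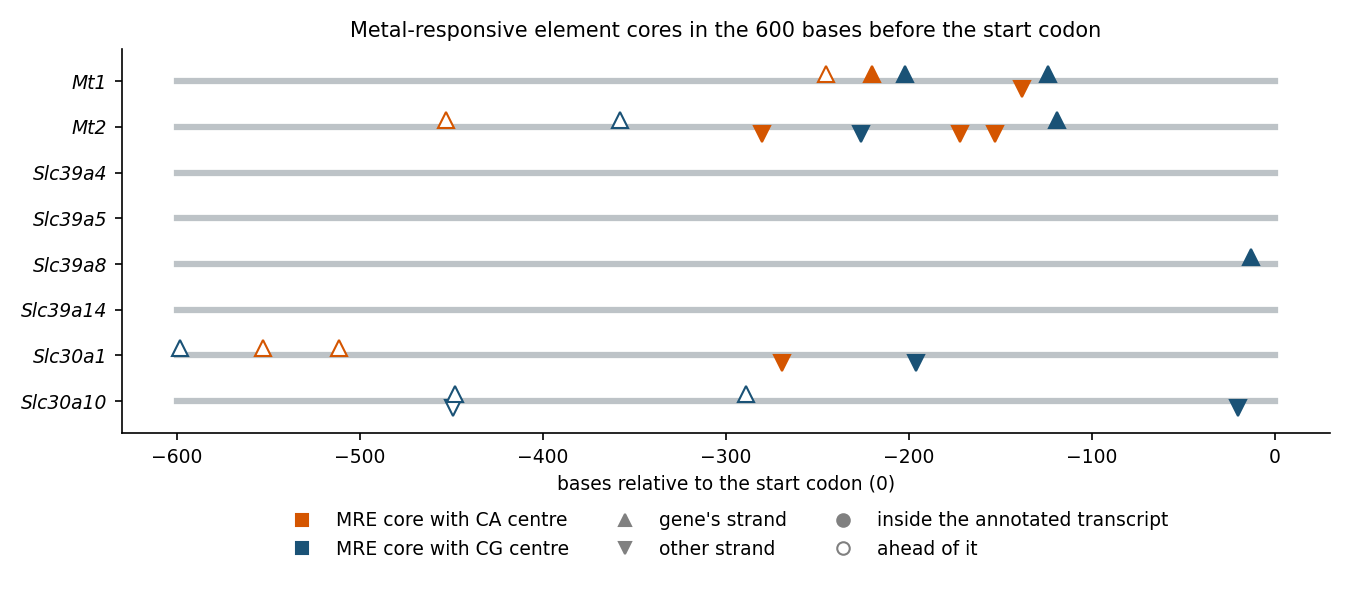
Positions of MRE cores in the 600 bases before the start codon (x axis, bases, start codon at 0) of each gene. Triangles point up for the gene's strand and down for the other strand, colour separates the 2 core forms, and open symbols lie ahead of the annotated transcript; the cores sit in Mt1 (5), Mt2 (7), Slc30a1 (5), Slc30a10 (4) and Slc39a8 (1).

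The treatment itself is shown with the part that pairs with targets, bases 2 to 8 or the seed, in capitals. The mature sequence is from RefSeq (GRCm38.p6), where it lies on chromosome 11.
mmu-miR-22-3p: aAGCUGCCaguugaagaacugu
Its 7-base match was looked for in the 3′ UTRs of the 8 transcripts and was found once in Slc39a14, 101 bases into a UTR of 3437 bases, and once in Slc30a10, 1642 bases into a UTR of 4207 bases. Of 20791 protein-coding genes with a 3′ UTR, 14.02% held a match. The sites are shown with 30 bases of UTR each and the match in capitals.
Slc39a14 site: tcatggaaaaGGCAGCTctttaaaaactgg
Slc30a10 site: gaggctgatgGGCAGCTgtgatctgggtta
Neither the 134-base UTR of Mt1 nor the 152-base UTR of Mt2 held one.

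Total counts per library ran from 16664659 to 23908392. Akt1, the gene behind one of the oncogene plasmids, had 2002 to 2105 normalised reads in the healthy group, 22700 to 32454 in the untreated group and 13027 to 21424 after miR-22, which separated the healthy from the HCC libraries as labelled. Mature miR-22 was not measured here. Normalised read counts are counts scaled by TMM factors to the mean library of 19401057 reads. A gene was called when its Benjamini-Hochberg adjusted p, in edgeR's quasi-likelihood test over all 15717 genes, was under 0.05 and its fold change was over 1.5. In bulk liver, fewer cells of a type and less RNA per cell cannot be told apart. Hepatocyte markers summed to between 2518600 and 2610780 normalised reads per healthy liver, between 969438 and 1224120 per untreated HCC liver and between 1510090 and 1889080 per miR-22-treated liver. In the tumour model 8 of 8 were called lower, and 5 of 8 were called higher after miR-22. Biliary markers summed to 948 to 1176, 65377 to 122273 and 30810 to 53145 in the same order, with 6 of 7 higher in untreated HCC and 5 of 7 lower after miR-22. In both HCC groups Spp1 made up nearly all of this sum, with means of 520, 89639 and 39135 in the 3 groups. Krt19 was called in neither comparison (log2 fold changes 0.89 and −0.01). None of the hepatocyte or biliary markers was at 0 in any group. Of 7 endothelial markers, 4 were called lower and 0 higher in untreated HCC, and 2 were called higher and 0 lower after miR-22. Of 7 stellate markers, 3 were called higher and 2 lower in untreated HCC, and 2 higher and 1 lower after miR-22. Of 7 macrophage markers, 1 was called higher and 1 lower in untreated HCC. Of the tested T-cell, neutrophil and erythroid markers, 1 of 6, 3 of 3 and 4 of 4 were called higher and 0 lower there. None of the macrophage, T-cell, neutrophil or erythroid markers tested was called after miR-22. The part of these cells in the results below was not tested. Pancreatic acinar markers stood apart in miR-22-treated replicate 2, where they summed to 9537 normalised reads against 18.5 and 34.6 in the other 2 miR-22-treated livers. In untreated replicates 2, 3 and 4 they summed to 90.9, 22.6 and 336, and in healthy livers to between 5.33 and 15.9. In healthy livers 10 of 12 acinar markers were at 0.

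Across the 3 comparisons the metallothioneins rose after miR-22, and Slc39a4 was higher in both HCC groups than in healthy livers. Between untreated HCC and healthy livers 2 of 8 genes were called, both higher, while 40.8% of all tested genes were called (22.7% higher and 18.1% lower). Between miR-22-treated and untreated HCC, 2 of 8 were called, both higher, against 13.8% of all genes (8.32% higher and 5.47% lower). Between miR-22-treated HCC and healthy livers, 3 of 8 were called, 2 higher and 1 lower, against 24% of all genes (16.9% higher and 7.05% lower). The medians of the 8 log2 fold changes were −0.17, 0.20 and 0.29 in that order, and those of all tested genes were 0.01, 0.002 and 0.02. With only 8 genes these counts are no more than a description, and the values follow gene by gene. The comparisons share groups and are not independent of each other.

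**Figure D2:**
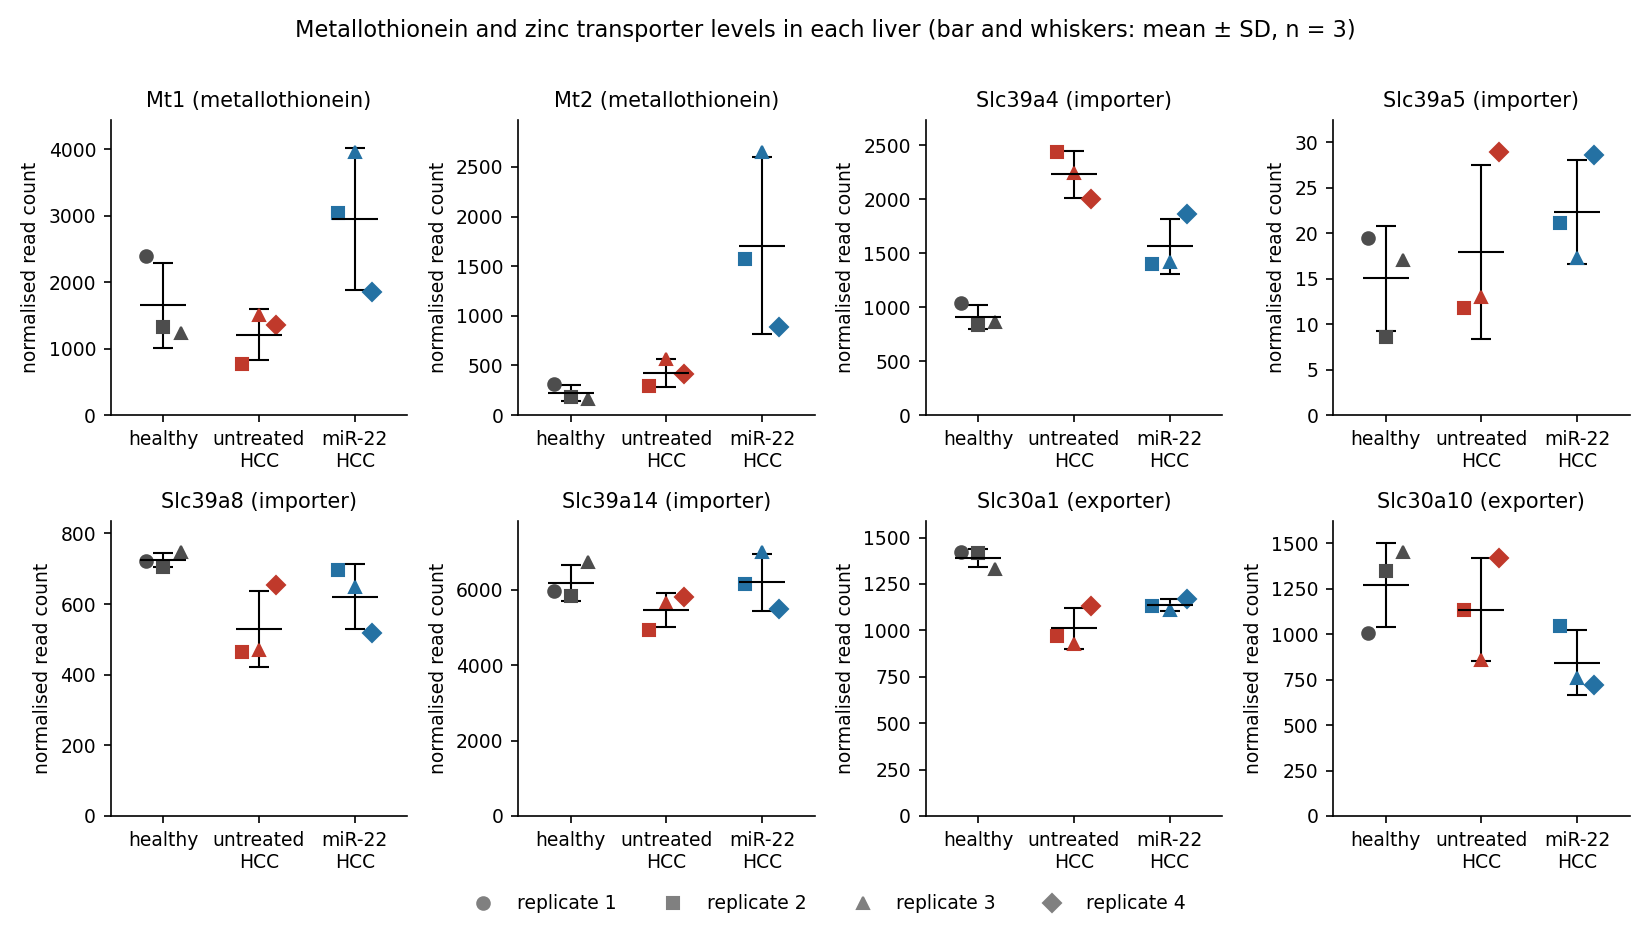
Normalised read count (y axis, from 0) of each of the 8 genes in each of the 9 livers, by group (x axis), with symbols for the replicate number and bars for the mean ± SD of 3 livers. Mt1 and Mt2 lie above every untreated HCC liver in all 3 miR-22-treated livers, and the Slc39a4 groups do not overlap, with untreated HCC at the top.

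Metallothionein mRNA had the largest fitted changes of the 8 genes after miR-22. Mt1 was present at 2389, 1330 and 1234 normalised reads in healthy replicates 1, 2 and 3, at 770, 1506 and 1358 in untreated HCC replicates 2, 3 and 4, and at 3038, 3967 and 1845 in miR-22-treated replicates 2, 3 and 4. Healthy and untreated livers overlapped, all 3 miR-22-treated livers lay above all 3 untreated livers, and 1 healthy liver lay above the lowest miR-22-treated liver. Mt1 rose after miR-22 by a log2 fold change of 1.28 (SE 0.31, 2.43-fold, 95% interval 1.52 to 3.89, adjusted p = 0.0111, edgeR). Without miR-22-treated replicate 3, the highest liver, the log2 fold change was 1.01 and the adjusted p was 0.0571, so the call rests on that liver, and it was also lost in a test against the 1.5-fold threshold itself (glmTreat, adjusted p = 0.132). Against healthy livers, miR-22-treated livers stood at a log2 fold change of 0.84 (SE 0.31, adjusted p = 0.0511), which was not called (but called in several alternative settings), and untreated livers at −0.44 (SE 0.31, adjusted p = 0.242), also not called. The 95% interval of the latter ran from −1.12 to 0.23.

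Mt2 was present at 315, 186 and 163 normalised reads in the healthy livers, 290, 565 and 416 in untreated HCC, and 1571, 2655 and 888 in miR-22-treated HCC, in the same replicate order. Every miR-22-treated liver exceeded every other liver, and the highest healthy liver exceeded the lowest untreated one. Mt2 rose after miR-22 by a log2 fold change of 2.00 (SE 0.35, 4.01-fold, 95% interval 2.35 to 6.84, adjusted p = 0.00198). Leaving out each library in turn kept this call, with log2 fold changes from 1.53 to 2.32. Without miR-22-treated replicate 2, the liver with the most acinar transcripts, the log2 fold change was 2.06 for Mt2 (adjusted p = 0.00546) and 1.26 for Mt1 (adjusted p = 0.0299).
Against healthy livers, Mt2 in miR-22-treated livers was higher by 2.95 (SE 0.38, 7.71-fold, 95% interval 4.36 to 13.6, adjusted p = 8.55e-05). In untreated livers the difference was 0.94 (SE 0.37, 1.92-fold, 95% interval 1.10 to 3.37, adjusted p = 0.0469), a call that was lost in DESeq2 (adjusted p = 0.0890), in glmTreat (adjusted p = 0.207) and without either of healthy replicates 2 and 3, untreated replicates 3 and 4, or miR-22-treated replicate 2 (adjusted p from 0.0592 to 0.181).

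Gm45774, on the opposite strand of Mt2, took 43, 22 and 42 counts in the healthy livers, 9, 26 and 14 in untreated HCC, and 275, 45 and 167 in miR-22-treated HCC, where Mt2 itself had 152 to 258, 319 to 650 and 962 to 2146 counts. As a percentage of the Mt2 count it was therefore highest in healthy replicate 3 (27.5%) and lowest in miR-22-treated replicate 3 (2.10%). With the reads of both genes summed, the rise of Mt2 after miR-22 was 2.10 (adjusted p = 0.001) and its difference between miR-22-treated and healthy livers was 2.84 (adjusted p = 5.36e-05). The difference between untreated and healthy livers was then 0.74 (adjusted p = 0.0815), no longer called.

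The share between the 2 metallothioneins also moved, and this ratio of counts, with no correction for the lengths of the genes, does not depend on how libraries are scaled. Mt1 had 7.59, 7.16 and 7.57 counts per Mt2 count in the healthy livers. In untreated HCC the ratio was 2.66, 2.67 and 3.26, and in miR-22-treated HCC it was 1.93, 1.49 and 2.08. The 3 groups did not overlap, with means of 7.44 ± 0.244, 2.86 ± 0.348 and 1.84 ± 0.304 (SD, n = 3). Mt2 thus made up 11.6 to 12.3% of the Mt1 and Mt2 counts of a healthy liver. In the untreated group its share was 23.4 to 27.4%, and after miR-22 it was 32.5 to 40.1%. With Gm45774 added to Mt2, the ratio was 5.94 to 6.51, 2.57 to 3.19 and 1.46 to 1.77, still without overlap. The ratio is given as a description, with no test. Within the miR-22-treated group, the liver with the highest Mt1 and Mt2 (replicate 3) had the lowest ratio, Akt1 (13027) and summed biliary markers (30810, mostly Spp1). The liver with the lowest Mt1 and Mt2 (replicate 4) had the highest ratio, Akt1 (21424) and summed biliary markers (53145). This was not so in the untreated group, where the liver with the highest normalised Mt1 and Mt2 (replicate 3) had the highest Akt1 (32454) and the highest summed biliary markers (122273).

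**Figure D3:**
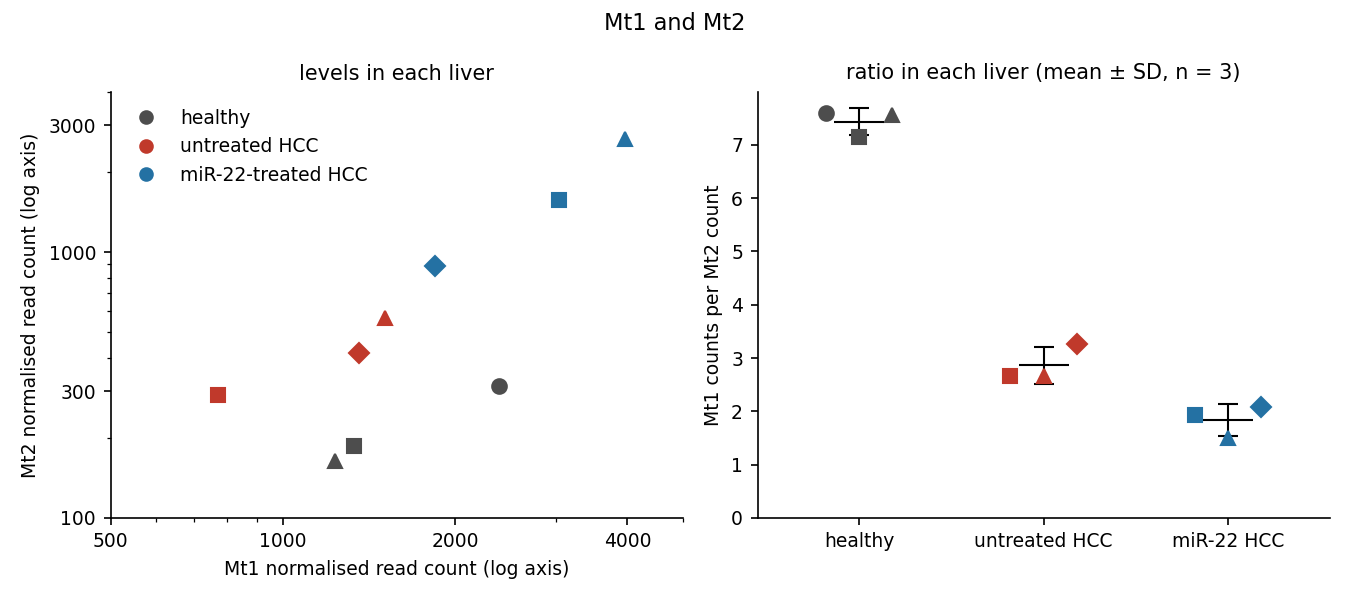
Left, Mt2 against Mt1 normalised read counts in each of the 9 livers (both axes logarithmic); right, Mt1 counts per Mt2 count in each liver by group, with the mean ± SD of 3 livers. Healthy livers lie to the right of HCC livers of like Mt2 level, at 7.16 to 7.59 Mt1 counts per Mt2 count against 2.66 to 3.26 in untreated and 1.49 to 2.08 in miR-22-treated HCC.

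Of the importers, Slc39a4 changed. It encodes ZIP4, the zinc importer best known from the small intestine, and lies on the minus strand of chr15:76496580-76504172. Its normalised read count was 1037, 836 and 858 in healthy livers, 2440, 2243 and 2002 in untreated HCC, and 1403, 1422 and 1858 in miR-22-treated HCC. No group overlapped another. Slc39a4 rose in untreated HCC by a log2 fold change of 1.29 (SE 0.13, 2.45-fold, 95% interval 2.02 to 2.97, adjusted p = 3.45e-06), and every alternative setting kept this call. The miR-22-treated level was lower than the untreated one by −0.51 (SE 0.13, 1.43-fold, adjusted p = 0.0118), below the 1.5-fold threshold. Without miR-22-treated replicate 4, whose level was nearest to the untreated livers, that difference was −0.66 (adjusted p = 0.00165) and was called. Compared with healthy livers, Slc39a4 remained higher after miR-22 by 0.78 (SE 0.13, 1.72-fold, 95% interval 1.41 to 2.08, adjusted p = 0.000561, but 0.141 in glmTreat). Of its 2731 stretches of 31 bases, 844 were shared with Gm62519 or Gm62526, annotated on the opposite strand, which are not in the count table.

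Slc39a14, the gene of ZIP14 (minus strand, chr14:70540678-70588914), was not called in any comparison. Its normalised read counts were 5982, 5849 and 6730 in healthy livers, 4942, 5661 and 5800 in untreated HCC, and 6145, 6994 and 5483 in miR-22-treated HCC. Untreated livers all lay below healthy livers, by a log2 fold change of −0.18 (SE 0.12, adjusted p = 0.209), and miR-22-treated livers overlapped both. Neither the difference after miR-22, 0.18 (SE 0.12, 95% interval −0.07 to 0.43, adjusted p = 0.282), nor that from healthy livers, 0.0045 (95% interval −0.25 to 0.26, adjusted p = 0.980), was called. This gene holds 1 of the 2 seed matches shown above.

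Slc39a8 encodes ZIP8, an importer of zinc and manganese (plus strand, chr3:135531040-135594333). It had 722, 705 and 746 normalised reads in healthy livers, 464, 471 and 654 in untreated HCC and 697, 650 and 518 in miR-22-treated HCC. All 6 HCC livers lay below the lowest healthy liver. The difference between untreated and healthy livers was −0.45 (SE 0.14, 1.37-fold lower, adjusted p = 0.0170), under the fold threshold, and without untreated replicate 4 it was −0.63 and called. After miR-22 the level differed from untreated HCC by 0.23 (SE 0.14, adjusted p = 0.282) and from healthy livers by −0.22 (SE 0.14, adjusted p = 0.247).

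Slc39a5, whose product ZIP5 is known from intestine and pancreas (minus strand, chr10:128231799-128237121), was near the limit of detection. Counts per library were 7 to 16 (healthy), 13 to 40 (untreated) and 14 to 31 (miR-22-treated), and the groups overlapped. Normalised read counts of 8.56 to 19.5, 11.8 to 29.0 and 17.3 to 28.6 gave log2 fold changes of 0.27 (SE 0.46) between untreated and healthy livers, 0.31 (SE 0.44) after miR-22 and 0.58 (SE 0.47) between miR-22-treated and healthy livers. At this depth a 2-fold difference lay inside each interval, for example −0.65 to 1.27 after miR-22. Replicate 2 of the miR-22 group, with the most acinar transcripts, had 19 counts. Untreated replicate 4, next in summed acinar markers (336), had the highest count, 40.

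The exporters did not follow the metallothioneins. Slc30a1, the gene of the plasma membrane zinc exporter ZnT1 (plus strand, chr1:191638808-191645361), had 1420, 1416 and 1331 normalised reads in healthy livers, 970, 928 and 1133 in untreated HCC and 1130, 1109 and 1170 in miR-22-treated HCC. All HCC livers were below all healthy livers, and the 2 HCC groups overlapped. Untreated livers were lower by −0.46 (SE 0.089, 1.37-fold, adjusted p = 0.000777) and miR-22-treated livers by −0.29 (SE 0.090, 1.22-fold, adjusted p = 0.0238), both under the fold threshold. After miR-22 the difference from untreated HCC was 0.17 (SE 0.089, 95% interval −0.03 to 0.36, adjusted p = 0.197), so that the upper bound of 1.29-fold lay below the lower bounds of 1.52-fold for Mt1 and 2.35-fold for Mt2. Slc30a1 had as many MRE cores as Mt1 in both windows searched, which are matches of letters. Zinc and the activity of Mtf1 were not measured, and their part in these values was not tested.

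Slc30a10, which encodes a manganese exporter of liver and intestine (plus strand, chr1:185186973-185200959), had 1009, 1350 and 1450 normalised reads in healthy livers, 1132, 857 and 1419 in untreated HCC and 1048, 760 and 721 in miR-22-treated HCC. Livers of all groups overlapped. It was called lower in miR-22-treated than in healthy livers by −0.59 (SE 0.19, 1.51-fold, 95% interval of the log2 value −1.01 to −0.17, adjusted p = 0.0299). With the fold so close to the threshold, that call was lost in glmTreat (adjusted p = 0.807), with upper-quartile factors (−0.58), with at least 10 counts required in every library (−0.56), and without any one of healthy replicates 2 and 3 and miR-22-treated replicates 3 and 4 (adjusted p from 0.0874 to 0.106). Against untreated HCC the difference was −0.43 (SE 0.19, adjusted p = 0.124), not called, and between untreated and healthy livers it was −0.16 (SE 0.19, adjusted p = 0.497). It is the other gene with a seed match.

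**Figure D4:**
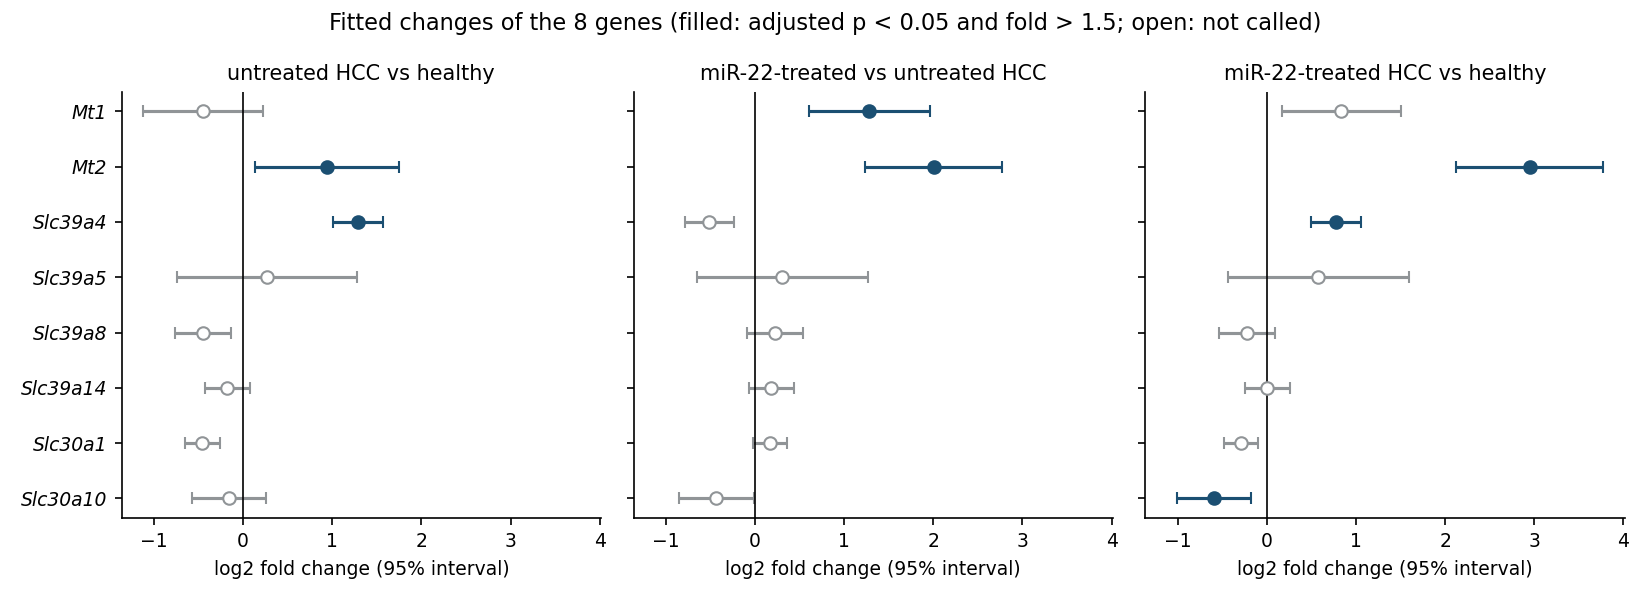
Fitted log2 fold change (x axis) with its 95% interval for each of the 8 genes in the 3 comparisons; filled points were called, open points were not. After miR-22 the called genes are Mt1 (1.28) and Mt2 (2.00), and the intervals of Slc39a5, Slc39a8, Slc39a14 and Slc30a1 include 0.

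Apart from the ratio of Mt1 to Mt2 counts, levels of different genes were compared only per kilobase of annotated exon sequence (union of all transcripts). In healthy livers Mt1 stood first at 1325 ± 514 normalised reads per kilobase, Slc39a14 followed at 512 ± 39.3, and then came Slc30a1 (245 ± 8.80), Mt2 (233 ± 86.1) and Slc39a4 (219 ± 26.4; SD, n = 3). Mt2 differed from both of these by less than its own SD, while Slc30a1 and Slc39a4 differed by slightly more than either SD. Below these were Slc30a10 (165 ± 30.02), Slc39a8 (91.8 ± 2.60) and Slc39a5 (6.69 ± 2.56). In untreated HCC, Slc39a4 (535 ± 52.7) stood above Slc39a14 (452 ± 38.1) by more than either SD, Mt2 (446 ± 145) differed from both by less than its own SD, and all were below Mt1 (972 ± 313). In miR-22-treated HCC, Mt1 (2367 ± 854) and Mt2 (1794 ± 938) differed by less than their SD, and both exceeded Slc39a14 (514 ± 62.7), the highest transporter. The order turned in places when reads were divided by the length of 1 transcript per gene from the consensus coding set (CCDS), a choice made after seeing the data. In untreated HCC, Slc39a14 (1052 ± 88.6) then stood above Slc39a4 (807 ± 79.6) and Mt2 (621 ± 202), all below Mt1 (2207 ± 709). In miR-22-treated HCC, Mt1 (5373 ± 1937) then exceeded Mt2 (2499.6 ± 1307) by more than either SD, and Slc39a14 was at 1194 ± 146. In healthy livers, Mt1 (3008 ± 1168) and Slc39a14 (1191 ± 91.4) still came first, and Slc39a4 (330 ± 39.8) then stood above Slc30a1 (263 ± 9.43), with Mt2 at 324 ± 120.

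The rest of the zinc system was read from a list of 22 further genes, of which 16 passed the filter. Between untreated HCC and healthy livers 2 were called higher and 1 lower, after miR-22 0 higher and 1 lower, and between miR-22-treated and healthy livers 2 higher and 0 lower. These are 3, 1 and 2 of 16 genes, beside 40.8%, 13.8% and 24% of all genes. The list's median log2 fold changes were 0.18, −0.08 and 0.05. Slc39a6, the gene of the importer ZIP6, rose from 53.2 ± 7.23 to 203 ± 28.4 normalised reads in untreated HCC (1.92, SE 0.18, adjusted p = 2.03e-06). After miR-22 it fell to 128 ± 9.92 (−0.66, SE 0.17, adjusted p = 0.0129), and its difference from healthy livers was 1.26 (adjusted p = 0.000224).
Slc39a11, for ZIP11, rose from 424 to 750 in untreated HCC (0.82, SE 0.11, adjusted p = 3.11e-05) and stood at 746 after miR-22 (difference from untreated −0.01, SE 0.10). Slc39a2, for the importer ZIP2, fell from 36.0 to 12.2 in untreated HCC (−1.54, SE 0.35, adjusted p = 0.0023) and was at 21.7 after miR-22 (0.82, adjusted p = 0.124, not called). Slc30a5, Slc39a7 and Slc39a9 act in the secretory pathway or its membranes, and each was among the 3 genes of the list with the smallest p in a comparison with the miR-22-treated livers. The differences after miR-22 were −0.40 for Slc30a5 (adjusted p = 0.00809) and −0.44 for Slc39a7 (adjusted p = 0.0309), and between miR-22-treated and healthy livers −0.30 for Slc39a9 (adjusted p = 0.0300), none past the fold threshold.
Mtf1, the metal sensor itself, had 415, 468 and 445 normalised reads on average in healthy, untreated and miR-22-treated livers, and its differences of 0.18, −0.07 and 0.10 were not called. The other metallothionein genes did not pass the filter: Mt3 had a mean of 1.44 normalised reads in untreated HCC and 0 in the other groups, and Mt4 had 2.49 in healthy livers and 0 in both HCC groups.

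Copper is bound by the same metallothioneins, and the share of its transport genes that was called lay near that of all genes in the comparisons with untreated HCC. Of 11 copper genes, 3 were called higher and 2 lower in untreated HCC, 0 higher and 1 lower after miR-22, and 3 higher and 2 lower in miR-22-treated than in healthy livers (medians −0.06, −0.11 and −0.08). These are 5, 1 and 5 of 11 genes, beside 40.8%, 13.8% and 24% of all genes. Atp7a, a copper-exporting ATPase, rose from 169 to 412 in untreated HCC (1.29, SE 0.13, adjusted p = 4.47e-06), and fell to 255 after miR-22 (−0.69, SE 0.13, adjusted p = 0.00264). Cp, which encodes ceruloplasmin, the copper protein of plasma, rose from 36348 to 96382 in untreated HCC (1.41, SE 0.13, adjusted p = 2.14e-06) and was at 81198 after miR-22 (−0.25, adjusted p = 0.194). Falls were seen in untreated HCC for Slc31a1, the copper importer Ctr1 (−0.89, SE 0.10, adjusted p = 1.22e-05), and Ccs, the copper chaperone of superoxide dismutase (−1.06, SE 0.12, adjusted p = 9.53e-06). After miR-22 these stood 0.48 and 0.44 above untreated HCC (adjusted p = 0.00563 and 0.0190), under the fold threshold. Atp7b, the hepatocyte ATPase that sends copper to bile, was lower in miR-22-treated than in healthy livers by −0.59 (1.504-fold, adjusted p = 0.00158). It was already lower in untreated HCC by −0.42 (adjusted p = 0.00656, under the fold threshold), and differed after miR-22 by −0.17 (adjusted p = 0.315).

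Genes known to respond to glucocorticoids, hormones that also act on the metallothionein genes, moved in opposite directions in the HCC and miR-22 comparisons. In untreated HCC, 7 of 10 were called lower and 1 higher. The shares over all genes were 18.1% lower and 22.7% higher. After miR-22, 9 were called higher and 1 lower, against 8.32% and 5.47% of all genes, and between miR-22-treated and healthy livers 1 was called higher and 0 lower, against 16.9% and 7.05%. Their median log2 fold changes were −1.12, 1.38 and 0.28. This list, like the others, was chosen with earlier results of these data known, so its counts are a description. Hepatocyte markers also fell and then rose, with medians of −1.77, 0.99 and −0.35 in the same order. Klf9, a transcription factor, fell from 1907 to 853 in untreated HCC (−1.16, SE 0.12, adjusted p = 4.19e-06), and was at 2142 after miR-22 (1.33, SE 0.12, adjusted p = 3.77e-05). Tsc22d3, the gene of the leucine zipper protein GILZ, went from 2632 to 758 and then to 3184 (−1.80 and 2.07, adjusted p = 4.71e-05 and 0.000233).
Tat, the tyrosine aminotransferase of hepatocytes, which is also in the hepatocyte marker list, went from 38297 to 6167 and 35400 (−2.63 and 2.52, adjusted p = 5.29e-05 and 0.000720). For Dusp1, a phosphatase of MAP kinases, the values were −0.82 and 1.34 (adjusted p = 0.0157 and 0.00311), and for Errfi1, an inhibitor of the EGF receptor, −0.34 (adjusted p = 0.460, not called) and 1.16 (adjusted p = 0.0400). Ddit4, which also responds to hypoxia and other stress, did the reverse: it rose from 87.3 to 1039 in untreated HCC (3.57, SE 0.21, adjusted p = 7.05e-08) and fell to 611 after miR-22 (−0.76, adjusted p = 0.00962). Mt1 and Mt2 were called higher after miR-22 beside 9 of these genes, and in untreated HCC, where 7 of these genes were called lower, Mt1 differed from healthy livers by −0.44 (adjusted p = 0.242, not called) and Mt2 by 0.94 (adjusted p = 0.0469, and 0.0890 with DESeq2). No hormone was measured, and its part in the metallothionein values was not tested.

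**Figure D5:**
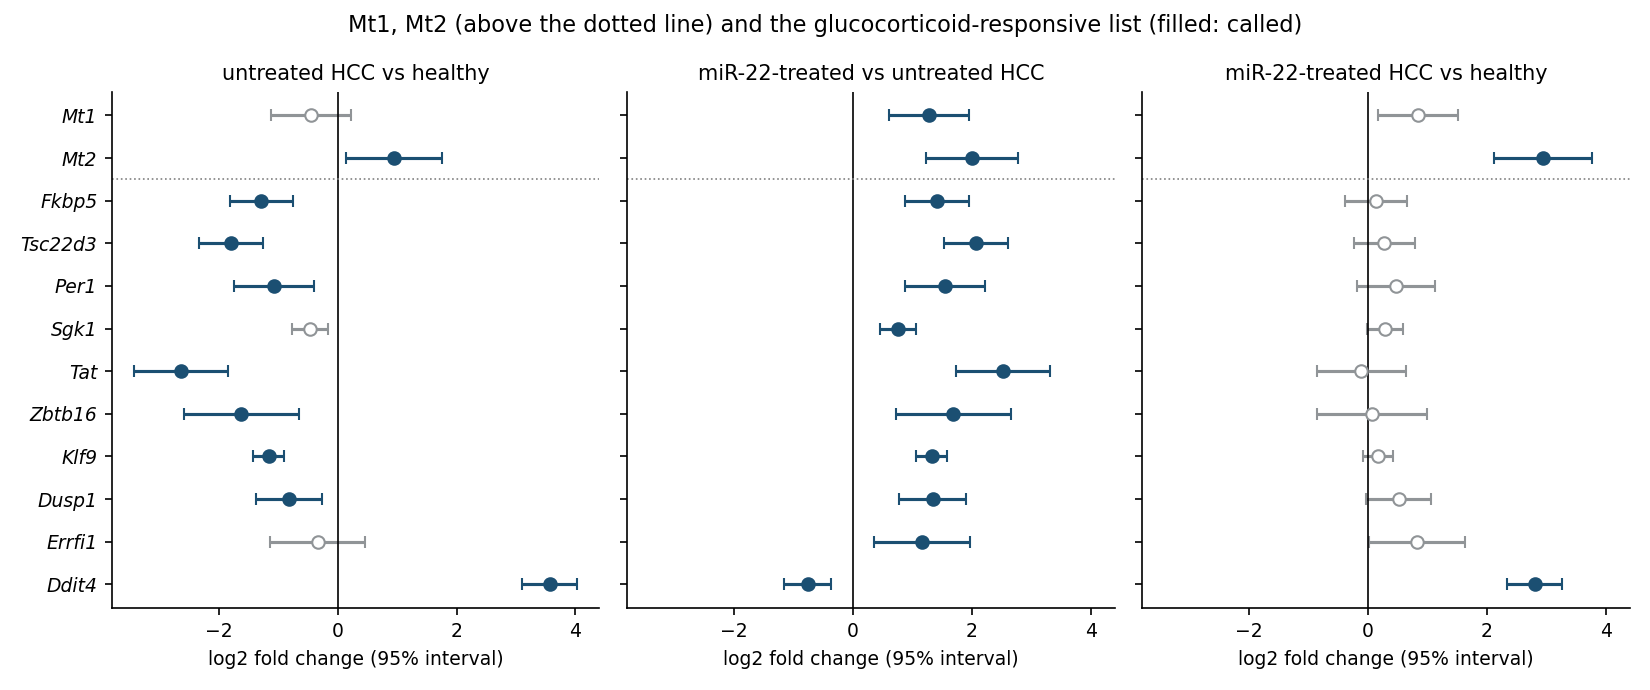
Fitted log2 fold change (x axis) with its 95% interval for Mt1 and Mt2, above the dotted line, and the 10 genes of the glucocorticoid-responsive list in the 3 comparisons; filled points were called. After miR-22, Mt1 (1.28) and Mt2 (2.00) lie to the right together with 9 of the 10 genes, Ddit4 being to the left (−0.76); in untreated HCC Mt2 (0.94) lies to the right of 0 while 7 of the 10 are called to the left.

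Acute-phase genes, a liver response to cytokines, gave a mixed picture. Of 19 genes, 7 were called higher and 5 lower in untreated HCC, 3 higher and 1 lower after miR-22, and 8 higher and 0 lower in miR-22-treated than in healthy livers (medians 0.18, 0.36 and 0.47). The 12, 4 and 8 of 19 genes called in the 3 comparisons stand beside 40.8%, 13.8% and 24% of all genes. Orm2, an orosomucoid, rose in untreated HCC by 2.87 (SE 0.13, adjusted p = 1.03e-08) and differed after miR-22 by −0.55 (adjusted p = 0.00447, under the fold threshold). Hp, the hemoglobin scavenger haptoglobin, and the serum amyloids Saa1 and Saa2 rose in untreated HCC by 2.22, 2.00 and 2.23, and Il1rn, the antagonist of the interleukin-1 receptor, by 3.38. None of these 4 was called after miR-22 (−0.34, 0.47, 0.37 and −0.59, adjusted p = 0.178, 0.0748, 0.239 and 0.0675). Il6ra, an interleukin-6 receptor chain, and Crp, the C-reactive protein, went the other way, lower in untreated HCC by −1.72 and −0.68 and higher after miR-22 by 1.51 (adjusted p = 0.00158) and 0.58 (adjusted p = 0.00118), the last under the fold threshold. Slc39a14, which interleukin-6 is known to raise, differed from healthy livers in untreated HCC by −0.18.

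The genes whose pattern over the 9 libraries was closest to each of the 8 were found by the root mean square difference of centred log2 CPM (counts scaled to library size), and the measure says nothing of shared function or control. For Mt1 they were Gm43513 (0.27), Gm20684 (0.33) and Dusp1 (0.34), of which the first 2 had as few as 5 counts in a library. For Mt2 the nearest was Chac1, a glutathione-degrading enzyme, at 0.45 (14.2, 46.5 and 130 normalised reads on average in the 3 groups, from 8 counts in a library). Next came Aspn (0.64), with only 1 to 3 counts per healthy library, and Adamts6 (0.66).
Slc39a4 was followed closely by Myh14 (0.08), Psmd10 (0.09) and Pcolce (0.09), with Myh14 at 575, 1368 and 1020 normalised reads. Slc30a1 had the closest neighbours of all, Sdhc, Tmem134 and Mrps7 (0.04, 0.05 and 0.05), and Slc39a8 had Gnpda1, Pikfyve and Edrf1 (0.05, 0.08 and 0.09). Slc39a14 lay near Ormdl1, Tbk1 and Vcpip1 (all 0.07). For Slc30a10 they were Kctd7 (0.14), Chst13 (0.15) and Arhgap23 (0.16), and for the sparse Slc39a5 they were Dok2 (0.23), Gm44389 (0.27) and Klhdc8b (0.29).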

How the data were processed

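Liver RNA of 9 mice was sequenced as unstranded 150-base read pairs. Per the study's methods and the submitters' processing notes, the authors ran FastQC 0.11.7, quantified reads with Salmon against GRCm39 and a GENCODE annotation, brought them to gene level with tximport, and tested them with DESeq2 1.18. One table deposited by the authors holds whole-number counts, neither normalized nor filtered. The other deposited table holds a normalized signal: after multiplication by 1 size factor per library, 100% of its values were whole within 0.01 and equal to the counts.

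The counts were tested in edgeR 4.0.16 (R 4.3.3; TMM factors, filterByExpr, all 3 groups in one quasi-likelihood fit, two-sided). Genes were called at a Benjamini-Hochberg adjusted p under 0.05 over 15717 genes and a fold over 1.5. The script was tested on simulated data. Replicates of a group differed by more than sampling noise (chi-square per degree of freedom 6.13 to 28.4). Depth, 16664659 to 23908392 counts per library, limits precision for genes such as Slc39a5, with 7 to 40 counts.

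Sequences, positions and lengths came from GRCm39 with GENCODE release M39, matched on gene identifiers without version. The CCDS transcript of each gene was used. Alternatives were DESeq2 1.42.0, other factors and filters, 2 groups only, a replicate block, other call rules and leaving out each library. Added after seeing the data were recovered reads, Mt2 summed with Gm45774, and the CCDS length.

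The 8 genes and all gene lists were chosen with earlier results of these data known. Text names the 8 genes, the 3 genes of smallest p per list and comparison, and the 3 nearest patterns of each gene. Mtf1, Mt3, Mt4 and Gm45774 were added after their values were seen. Doses of virus differ between the labels and the methods and are not given.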

Additional observations from a re-analysis of the deposited data

How the results depend on the processing

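Of the recomputed log2 fold changes of the 8 genes, 434 kept direction and side of the threshold, 14 gained a call, 18 lost one and 11 changed sign, none of the last a called value. The 434 include values that could not differ, since the recovered reads equal the counts. The settings with no fold threshold and with glmTreat share the main fit, so there only the call could change. Of the 2 genes called between untreated HCC and healthy livers, 1 was left with DESeq2, with glmTreat against a fold of 1.5, and with Gm45774 summed with Mt2 (Slc39a4 each time), 4 were called with no fold threshold, and 1 to 2 without single libraries. After miR-22, 1 of 2 was left with glmTreat and 1 to 3 were called without single libraries. Of the 3 called between miR-22-treated and healthy livers, 1 was left with glmTreat, and 2 to 4 were called without single libraries. Mt1 gained a call between those groups with at least 10 counts in every library (adjusted p = 0.0489) and with 2 groups only (adjusted p = 0.0456). It also gained one without healthy replicate 1 (log2 fold change 1.184), untreated replicate 2 or miR-22-treated replicate 4 (log2 fold change 1.09). Without the filter on low counts it was called too, at an adjusted p of 2.85e-12 in edgeR. That value, far below the 0.0511 of the main fit to the same livers, is not read as stronger evidence.

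Sign changes involved uncalled values alone. Slc39a14 in miR-22-treated against healthy livers was at −0.0248 with DESeq2, −0.0247 with its size factors and −0.000786 with 2 groups only, and ranged from −0.0901 to 0.0859 without single libraries. In untreated against healthy livers, the range without single libraries was −0.277 to 0.490 for Slc39a5 and −0.354 to 0.00996 for Slc30a10. The mean Mt1 to Mt2 ratio of healthy livers was 6.23 with Gm45774 summed with Mt2, and without single libraries 7.36 to 7.58, against 2.66 to 2.97 and 1.71 to 2.01 in the HCC groups. Recovered reads changed nothing, being equal to the counts.

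With no fold threshold, called genes between untreated and healthy livers became 5 of the other zinc genes (from 3) and 8 of the copper genes (from 5). After miR-22 they became 3 zinc, 3 copper and 8 acute-phase genes (from 1, 1 and 4), and between miR-22-treated and healthy livers 4 zinc and 8 copper genes (from 2 and 5). With glmTreat, 0 zinc, 0 copper, 6 glucocorticoid-responsive and 1 acute-phase genes were left after miR-22, and 1 zinc and 1 copper gene between miR-22-treated and healthy livers. Without the filter, 2 glucocorticoid-responsive genes were called in the latter comparison. Without single libraries the counts were 0 to 1 zinc genes and 3 to 9 acute-phase genes after miR-22 (9 without untreated replicate 4, 7 without miR-22-treated replicate 4), and 2 to 5 copper genes (2 without healthy replicate 1) and 1 to 3 glucocorticoid-responsive genes between miR-22-treated and healthy livers. Called genes in all were 2167 after miR-22, but 3777 with no fold threshold, 468 with glmTreat and 1433 without miR-22-treated replicate 3, and 3772 between miR-22-treated and healthy livers, but 5732 and 2010 with those rules.

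Replicate numbers gave no sign of pairing: deviations of same-numbered livers correlated between −0.235 and 0.0256, and those of other pairs between −0.0629 and 0.131. Deviations from a mean of 3 livers depend on each other, so this cannot exclude a shared day or batch. With the number as a replicate block, Slc39a14 in miR-22-treated against healthy livers was at −0.000311, Mt1 was called there (1.23, adjusted p = 0.0247), making 4 genes, and 2 glucocorticoid-responsive genes were called, with no other change of a call among the 8 genes.

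Depth limits Slc39a5 most, and 3 livers per group limit Mt1 and Mt2, whose SD was 32.1 to 52.3% of the mean.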
